A study of Mus musculus with 8 samples.

Results

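Gene expression in wild-type sacral neural crest cells of the mouse was described from 4 arrays, replicates 1 to 4 of the wild-type genotype, out of 8 arrays in the study. These 4 were chosen by their titles. Only probe sets with exactly 1 gene symbol were used, and the brightest probe set stood for each gene, which gave 6855 genes. The other 4 arrays, of homozygous Sox10 Dom/Dom embryos, are not described. The wild-type embryos were taken at embryonic day 9.5, and the piece of neural tube lying caudal to somite 24 was dissected and placed in DMEM/F12 medium with 10% foetal bovine serum. The explant was lifted off after 24 hours, so that the RNA came from cells that had crawled out of it onto the dish. A probe for the Affymetrix Mouse Gene 1.0 ST array was made from 250 ng of total RNA for each sample. No label says whether the replicates came from separate embryos, pooled embryos or separate litters, so the p-values below take in only how far these 4 samples lay apart, some of which may be technical scatter.

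Neural crest cells arise at the dorsal edge of the neural tube, lose their epithelial contacts and migrate through the embryo. They form peripheral neurons and glia, pigment cells and, at some levels, smooth muscle and connective tissue. Crest cells of the sacral level enter the hindgut and the pelvic ganglia, where they add to the enteric nervous system. A small set of transcription factors, among them Pax3, the Zic, Tfap2 and Snai proteins, Sox9 and Sox10, is known for inducing the crest, for its departure from the neural tube and for the choice between its fates.

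The values are log2 levels per gene, normalised between arrays by the authors. Medians over all probe sets lay between 8.60 and 8.69 on the 4 arrays. The arrays did not stand at equal distances from each other. Across genes, which are not independent replicates, replicates 3 and 4 correlated at 0.998, and every other pair lay between 0.989 and 0.993. Levels are given array by array for a selection of genes and as mean ± SD for the others, where a gap between replicates 1 and 2 and replicates 3 and 4 is not visible. A level depends on the probes of its probe set as well as on the RNA, so an order of genes is an order of probe set brightness. The cells were measured in bulk, in which fewer cells of a type and less RNA per cell cannot be told apart. The number of arrays limits the precision of all values.

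The median level over the 6855 genes was 9.30, with quartiles at 7.83 and 10.86 and extremes at 3.51 and 14.65. Olfactory receptor genes served as a silent reference, since their known place of expression is the nose. The 213 measured had a median level of 6.54, and the 95th percentile of their levels, taken on each array, was 8.38, 8.18, 8.23 and 8.07. Each gene was set against that percentile with limma's moderated test over the 4 arrays. By limma, with Benjamini-Hochberg adjustment and a threshold of 0.05, 4355 genes (63.5%) lay above the silent reference, 1997 (29.1%) below it and 503 (7.34%) were not distinguished from it. The reference is not a detection limit. Of the olfactory receptor genes themselves, 7 were called above it and the highest, Olfr767, stood at 9.66, so a level between the reference and that value was also reached by genes presumed silent. With Olfr767 as the reference, 2776 genes were above it. Levels are described below with their percentile among all genes, and the brightest 10% are the 686 genes whose mean exceeded 11.97. Counts of list or family members above the reference are to be read beside the 63.5% of all genes.

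**Figure D1:**
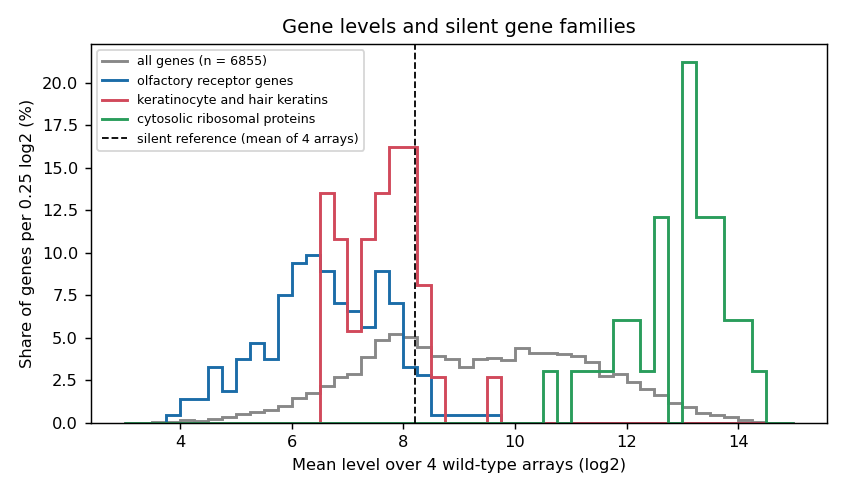
Share of genes (%) per bin of 0.25 log2 of the mean level over 4 wild-type arrays, for all genes, olfactory receptor genes, keratinocyte and hair keratins and cytosolic ribosomal protein genes, with the silent reference as a dashed line at 8.22. Ribosomal protein genes lie at the bright end around their median of 13.15, and olfactory receptor genes at the dim end around 6.54.

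The sequences just upstream of bright and dim genes differed in composition. For 5087 of 6347 protein-coding genes (80.1%) a promoter window was at hand in RefSeq's annotation of GRCm38.p6, running from 250 bases before to 50 bases after the transcription start. A window was called CG-rich where the CG dinucleotide was seen at least 0.6 times as often as its C and G content predicts. In mammalian genomes CG is generally rare outside the promoters of broadly used genes. The first window shown belongs to Id2, a bright gene that is CG-rich. Fabp7 and Sparc are shown because they were among the brightest genes and yet are poor in CG, and Aspn and Olfr767 because they represent the dim matrix genes and the silent family. Capitals mark CG, and each sequence runs 5′ to 3′ on the strand of its gene: Id2 at chr12:25096043-25096342 (minus strand), Fabp7 at chr10:57784673-57784972 (plus strand), Sparc at chr11:55420031-55420330 (minus strand), Aspn at chr13:49544193-49544492 (plus strand) and Olfr767 at chr10:129079912-129080211 (minus strand).
Id2: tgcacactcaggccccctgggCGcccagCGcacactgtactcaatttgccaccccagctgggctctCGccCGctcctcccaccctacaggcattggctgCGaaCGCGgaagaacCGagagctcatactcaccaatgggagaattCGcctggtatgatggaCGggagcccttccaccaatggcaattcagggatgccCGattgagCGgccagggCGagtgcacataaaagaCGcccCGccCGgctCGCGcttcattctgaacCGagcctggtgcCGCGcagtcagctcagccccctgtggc
Fabp7: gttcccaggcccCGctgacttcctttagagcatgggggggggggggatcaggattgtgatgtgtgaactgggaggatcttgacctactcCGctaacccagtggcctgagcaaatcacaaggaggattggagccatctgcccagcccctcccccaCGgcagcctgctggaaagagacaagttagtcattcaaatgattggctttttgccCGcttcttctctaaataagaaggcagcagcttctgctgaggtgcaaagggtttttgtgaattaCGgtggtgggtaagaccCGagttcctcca
Sparc: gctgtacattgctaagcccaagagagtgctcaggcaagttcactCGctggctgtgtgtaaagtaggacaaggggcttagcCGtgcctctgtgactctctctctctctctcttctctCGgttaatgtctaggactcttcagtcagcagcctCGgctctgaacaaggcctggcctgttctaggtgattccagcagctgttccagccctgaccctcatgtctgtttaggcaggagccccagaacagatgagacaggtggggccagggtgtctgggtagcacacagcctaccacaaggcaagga
Aspn: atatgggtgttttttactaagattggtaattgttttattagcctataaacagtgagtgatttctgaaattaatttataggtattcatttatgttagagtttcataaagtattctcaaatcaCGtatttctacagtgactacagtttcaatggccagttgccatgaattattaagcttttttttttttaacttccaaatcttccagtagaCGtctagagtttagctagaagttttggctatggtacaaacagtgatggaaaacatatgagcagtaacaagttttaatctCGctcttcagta
Olfr767: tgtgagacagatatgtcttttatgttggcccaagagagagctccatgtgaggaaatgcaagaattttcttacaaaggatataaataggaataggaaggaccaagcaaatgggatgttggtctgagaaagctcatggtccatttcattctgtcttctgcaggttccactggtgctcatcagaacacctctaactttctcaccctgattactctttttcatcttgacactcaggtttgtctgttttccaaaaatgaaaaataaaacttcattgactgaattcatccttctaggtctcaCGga

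Id2 had 21 CG dinucleotides in its window, a ratio of observed to expected of 0.711. Fabp7 had 6 (0.276) and Sparc 4 (0.174), whereas Aspn had 3 (0.422) in a window of 31.0% G and C, and Olfr767 had 1 (0.085). When genes were divided by mean level into 10 groups of equal size, 480 of 563 windows of the brightest group were CG-rich (85.3%). In the dimmest group 29 of 490 were (5.9%), and 28 of 385 (7.3%) once olfactory receptor genes were left out. Among olfactory receptor genes, 2 of 178 windows were CG-rich (1.1%). The share was 74.7%, 81.9%, 82.8% and 85.5% in groups 6 to 9, so it changed little over the upper levels. Over the 5087 windows together, 1 per coding gene, the share was 57.3%. Over all 32851 windows of the table, of which these are a part and where a gene can have several, it was 35.8%. The letters TATAAA, searched on both strands, ran the other way, with 7.8% of windows in the brightest group and 28.4% in the dimmest. They stood in 36.0% of windows of olfactory receptor genes, 11.3% of the 5087 windows and 13.6% of all 32851. Both Aspn and Olfr767 hold them. In groups 2 to 5, counted from the dimmest, fewer than 80% of coding genes had a window, and no share is given for them. These are descriptions of letters, and whether the base composition of the array's probes follows the same order was not tested.

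**Figure D2:**
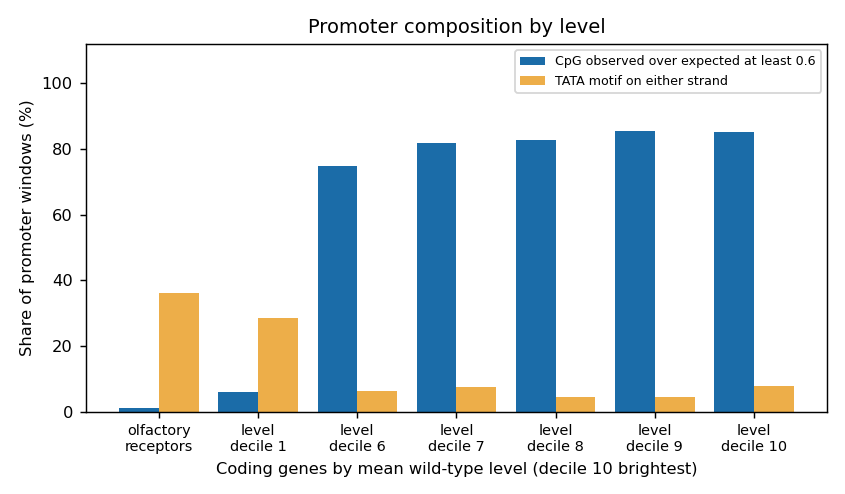
Share of promoter windows (%) that are CG-rich (blue) or hold the TATA motif on either strand (yellow) in olfactory receptor genes and in coding genes by group of mean wild-type level, group 10 being the brightest; groups 2 to 5 are left out for lack of windows. CG-rich windows make up 5.9% of the dimmest group and 85.3% of the brightest.

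All 20 measured members of a list of 37 neural crest transcription factors lay above the silent reference, against 63.5% of all genes, with a median level of 11.62, and 6 were among the brightest 10% of genes. Id2, an inhibitor of bHLH factors, read 13.83, 13.64, 13.99 and 14.05 on replicates 1 to 4. It was brighter than 99.6% of genes. Sox11, a SoxC factor of progenitors and young neurons, followed at 12.98 ± 0.08 (SD, n = 4). Pax3, a factor of the dorsal neural tube and early crest, read 12.53, 12.59, 12.40 and 12.31. Zic2, which acts in the dorsal neural tube and in crest induction, read 12.89, 12.66, 12.18 and 12.11, with both of replicates 1 and 2 above both of 3 and 4. Meis1, a cofactor of Hox proteins, stood at 12.42 ± 0.19 and Tfap2b at 12.18 ± 0.07.

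Sox10 itself, which maintains crest progenitors and directs glial and pigment fates, read 11.67, 11.46, 11.89 and 11.75. Its mean of 11.69 lay 3.48 log2 units above the silent reference (SE 0.10, adjusted p = 1.33e-10 by limma), at percentile 86.7 of all genes. Sox9, which precedes Sox10 in trunk crest, read 11.93, 11.99, 11.76 and 11.76, and the related Sox4 had a mean of 11.26 ± 0.10. Tfap2a stood at 11.81 ± 0.17 and Msx2, a target of BMP signalling, at 11.54 ± 0.12. Snai2, a repressor of epithelial genes in departing crest, read 11.39, 10.86, 11.69 and 11.75, lowest on replicate 2. The bHLH factors Twist2 and Twist1 had the lowest levels of the list. Twist1 read 8.67, 8.53, 8.50 and 8.46, only 0.32 above the reference (adjusted p = 0.00182 by limma) and below Olfr767. Of 11 crest markers, 9 were measured and all 9 were above the reference, against 63.5% of all genes. The same held for every measured marker of neurons (5), epithelium (4) and melanoblasts (2). The count therefore does not set crest apart from those types. Foxd3 and Ets1 were not analysed here.

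Genes of early glia and Schwann cell precursors covered a wide range, with a median of 10.43. Of 16 measured, 12 were above the silent reference (75%, against 63.5% of all genes) and 3 below it. Fabp7, a lipid-binding protein of radial glia and early crest glia, read 13.90, 14.16, 14.06 and 14.14 and stood at percentile 99.8. Pmp22, later a protein of compact myelin, had a mean of 13.52 ± 0.15. Ngfr, the low-affinity neurotrophin receptor by which crest cells are often sorted, read 11.90, 11.83, 11.96 and 12.01. These levels differed little between arrays. The receptor Erbb3, through which axonal neuregulin sustains Schwann cell precursors, read 11.91, 11.85, 12.65 and 12.61. Cdh19, a cadherin of those precursors, read 10.39, 10.37, 11.83 and 11.91. In both genes replicates 3 and 4 lay above replicates 1 and 2 without overlap. This is common on these arrays, as 2474 of the 4355 genes above the reference (56.8%) had such a gap in either direction and 1084 had it in this one. Adgrg6, an adhesion receptor needed for myelination, stood at 11.75 ± 0.20. Of the glial genes near or below the reference, S100b stood at 7.41 ± 0.13 and Gfap at 7.67 ± 0.11, both below the reference, as was Dhh, a Schwann cell ligand, at 7.90 ± 0.06. Egr2, the regulator of myelination, was not distinguished from the reference at 8.21 ± 0.18.

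Among pigment cell genes 6 of 7 measured were above the reference. They include Ednrb, which also counts in the glial and enteric lists, the Kit ligand gene Kitl, and Adamts20, only 0.30 above the reference. Dct, an enzyme of melanin synthesis and an early melanoblast marker, read 10.76, 10.33, 11.12 and 11.21, and Pmel, a fibril protein of the melanosome, read 10.25, 9.79, 10.36 and 10.42. Slc45a2, a transporter of the mature melanosome, lay below the reference at 7.95 ± 0.24, but not without replicate 2 (adjusted p = 0.109 by limma). Mitf, Kit and Tyr were not analysed here. All 7 measured enteric crest genes were above the reference, with a median of 9.89. Ednrb, the endothelin receptor needed for colonisation of the hindgut and for melanoblasts, read 12.48, 12.39, 13.16 and 13.25, higher on replicates 3 and 4. Gfra2, the receptor subunit for neurturin, stood at 10.18 ± 0.22. Gdnf, the ligand of the Ret pathway that gut mesenchyme makes for enteric progenitors, ran from 9.46 to 9.53 over the arrays, a level below Olfr767.

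Neuronal genes lay above the silent reference in 17 of 18 cases, with a median of 10.24. The cytoskeletal regulators Dpysl2 (14.00 ± 0.04) and Map1b (13.67 ± 0.12) stood at percentiles 99.7 and 99.3, and both are also used in migrating non-neuronal cells. Nefl, the light neurofilament subunit of axons, read 12.27, 12.28, 12.71 and 12.75, and Nefm read 10.80, 11.07, 11.33 and 11.32. The sensory neuron factors Isl1 and Pou4f1 were lower on replicates 1 and 2. Isl1 read 10.00, 10.41, 11.11 and 11.20, and Pou4f1 read 9.57, 9.68, 10.10 and 10.19. Neurog1, which starts sensory neurogenesis, stood at 10.14 ± 0.26. Near the reference were Prph (8.57 ± 0.27), an intermediate filament of peripheral neurons whose call was lost without replicate 3 (adjusted p = 0.0671 by limma), and Avil (8.23 ± 0.11), an actin regulator of sensory neurons that was not distinguished from it.

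Genes of the neural tube, mostly of its dorsal part, were above the reference in 12 of 12 cases with a median of 10.25. Besides Zic2 the brightest were Zic5 (11.68 ± 0.29), Rfx4 (11.65 ± 0.42), Olig3 (11.11 ± 0.17) and the roof plate ligand Wnt1, which read 11.10, 11.27, 11.02 and 10.94. Lmx1a, a roof plate factor, read 10.75, 10.56, 10.21 and 10.30. Averaged over the list, replicates 1 to 4 read 10.46, 10.55, 10.17 and 10.16, so that replicates 1 and 2 were above 3 and 4. The glial list ran the opposite way at 10.41, 10.29, 10.67 and 10.68. Other lists split too, Hox genes like the neural tube list (11.16, 11.18, 10.84 and 10.78) and neurons like the glial list (10.45, 10.56, 10.74 and 10.75). Among single genes above the reference, 56.8% had such a gap in either direction. Of 6 markers of other neural tube domains only Dbx2 was measured, at 8.44 ± 0.04, 0.23 above the reference (adjusted p = 0.0173 by limma), a call that was lost without replicate 2, 3 or 4 (adjusted p = 0.0718, 0.0694 and 0.0692). Of tail bud genes 5 of 5 were above it, the brightest being Greb1 at 11.36 ± 0.30 and Wnt5a at 10.54 ± 0.47. Msgn1, a factor of presomitic mesoderm, stood at 9.19 ± 0.34, below Olfr767.

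Hox genes, which give cells their place along the body axis, were above the reference in 17 of 18 cases with a median of 11.28. The measured genes lie in the HoxB cluster on chromosome 11 and the HoxC cluster on chromosome 15. Hoxc12, near the posterior end of its cluster, read 13.47, 13.12, 12.42 and 12.42. Hoxb9 read 12.76, 12.90, 12.60 and 12.57, and Hoxc8 read 12.52, 12.78, 12.04 and 11.84. Hoxc10, a gene of lumbar and sacral levels, read 11.93, 11.84, 12.04 and 12.04. Anterior members of the HoxB cluster were above the reference too, with Hoxb1 at 11.27 ± 0.42, Hoxb2 at 11.61 ± 0.20 and Hoxb3 at 11.54 ± 0.34. The last gene of HoxB, Hoxb13, read 8.87, 8.04, 8.12 and 7.95, highest on replicate 1, and was not distinguished from the reference. Hoxc11 and Hoxc13, on either side of Hoxc12, stood at 9.69 ± 0.29 and 9.94 ± 0.39. Hox transcripts of a cluster overlap, and which of them each probe set covers was not analysed here.

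Markers of other cell types were checked on the same arrays. For mesoderm, Prrx1 read 10.17, 9.93, 10.93 and 10.99 and Twist2 read 9.33, 8.96, 9.61 and 9.63, whereas the muscle regulators Myf5 (7.47 ± 0.06) and Myog (7.87 ± 0.12) were below the reference and the somite genes Foxc1 and Meox1 were not distinguished from it. Over the wider list of somite and lateral mesoderm genes 16 of 26 were above (61.5%, against 63.5% of all genes) and 8 below, and the median was 8.61. Bmp4 led it at 12.98 ± 0.15, a ligand also made by dorsal neural tube and crest. Of 17 skeletal and cardiac muscle genes 6 were above and 7 below, with none among the brightest 10% and a median of 7.97. Of 24 listed smooth muscle and pericyte genes 12 were measured, and all 12 were above the reference with a median of 11.31. They were led by the actin-associated proteins Csrp1 (14.03 ± 0.11), Cnn2 (13.52 ± 0.15) and Lpp (13.32 ± 0.20). These act in many motile cells, and the more restricted Myocd (9.97 ± 0.27), Lmod1 (8.82 ± 0.18) and Mylk (8.65 ± 0.03) were dimmer. Acta2, Tagln, Myh11, Cnn1 and Pdgfrb of that list were not analysed here.

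Endothelial genes had a median of 8.25, near the reference, with 6 of 13 above (46.2%, against 63.5% of all genes) and 3 below. Heg1 led them at 11.52 ± 0.21. Of the endothelial markers Cdh5, Kdr, Tie1 and Erg were not analysed here. Cldn5 was above the reference at 8.58 ± 0.16. Pecam1, an adhesion protein of endothelium, read 8.11, 8.01, 8.36 and 8.36 and was not distinguished from the reference. Blood and macrophage genes were above it in 5 of 15 cases and below it in 8. The leukocyte phosphatase Ptprc stood at 7.04 ± 0.07, below the reference. Hba-x, the embryonic alpha-like globin of primitive red cells, read 12.23, 11.67, 13.52 and 13.44, and Slc4a1, the anion exchanger of red cells, read 9.37, 9.30, 10.93 and 10.94. Both were higher on replicates 3 and 4 without overlap, the arrangement of 1084 of the 4355 genes above the reference. The part of red cells in the levels of other genes was not tested. Epithelial genes were above in 16 of 24 cases (66.7%), a share close to the 63.5% of all genes, with a median of 8.88. The simple epithelial keratins were bright, Krt8 at 12.92, 12.35, 12.60 and 12.59 and Krt18 at 11.86, 11.07, 11.60 and 11.56, both highest on replicate 1. Trp63, the regulator of stratified epithelium, was 0.28 above the reference at 8.50 ± 0.05, and Grhl2, a factor of epithelial junctions, was below it at 7.43 ± 0.08. Cdh1 and Epcam were not analysed here. The measured markers of each type were also summed on each array, as the log2 of their added levels. These sums rest on different probe sets and numbers of markers, so they serve to compare arrays and not cell types. The sum ranged from 14.92 to 15.07 over the arrays for 9 crest markers, from 14.55 to 14.96 for 5 of glia, from 13.12 to 13.71 for 5 of neurons and from 11.19 to 11.91 for 6 of mesoderm. It ranged from 12.98 to 13.56 for 4 of epithelium, of which Krt8 and Krt18 were bright and Krt5 and Trp63 were 0.61 and 0.28 above the reference, and from 11.73 to 13.54 for Hba-x and Ptprc.

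**Figure D3:**
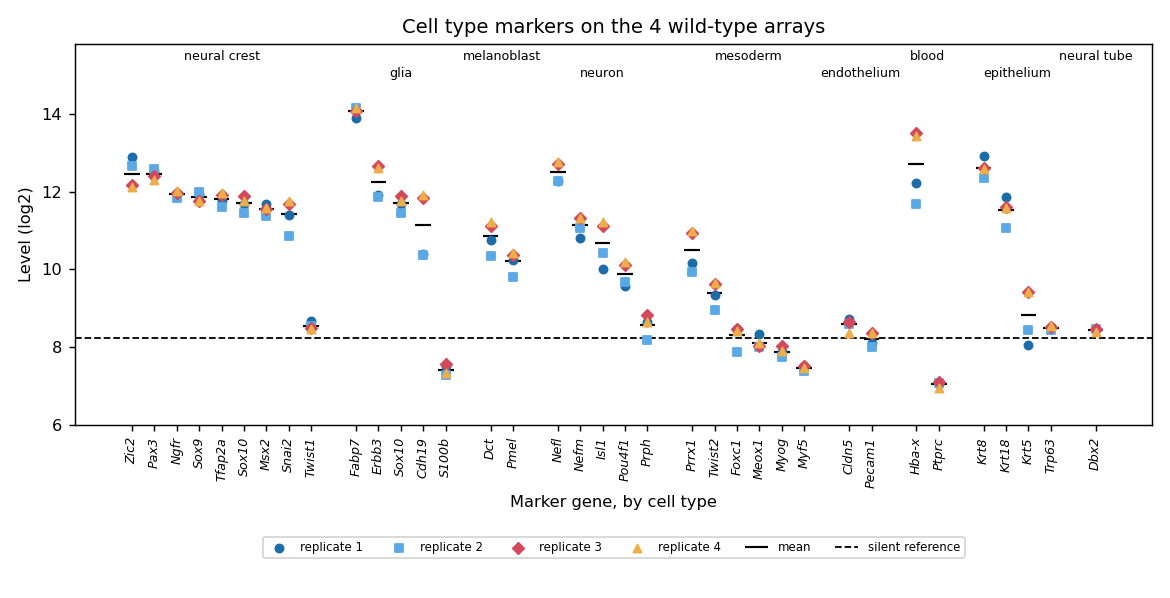
Level (log2) of each measured cell type marker on the 4 wild-type arrays (symbols), with the mean (bar) and the silent reference (dashed line at 8.22). The 9 crest markers lie above the line, Twist1 just above it at 8.54; Ptprc, Myf5, Myog and S100b lie below it; Hba-x, Cdh19 and Krt5 have the widest scatter.

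The measured glycoprotein and proteoglycan genes of the matrix ranged from 5.89 to 14.09. Of these 44 genes 27 were above the silent reference (61.4%, against 63.5% of all genes), 11 below and 6 not distinguished, and 8 were among the brightest 10%. Their median of 9.22 was close to the 9.30 of all genes. Fn1, the fibronectin on which crest cells migrate, read 14.16, 13.96, 14.12 and 14.11, brighter than 99.9% of genes. Sparc, a collagen-binding glycoprotein, read 14.06, 13.88, 14.05 and 14.06, and Ccn2, a target of TGF-beta and mechanical signals, read 13.97, 13.50, 13.88 and 13.82. All 3 were lowest on replicate 2. Vcan, the large proteoglycan versican, stood at 12.62 ± 0.28 and its link protein Hapln1 at 12.24 ± 0.25. The basement membrane genes Nid1 (12.37 ± 0.31), Lamc1 (11.94 ± 0.12), Nid2 (11.18 ± 0.09) and Lamb1 (10.87 ± 0.25) were above the reference. Lama4, a laminin alpha chain of vessels and nerves, read 10.39, 10.38, 11.31 and 11.44.

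Small leucine-rich proteoglycans, which coat collagen fibrils of mature connective tissue, made up much of the dim end. Aspn read 5.88, 5.45, 6.01 and 6.23. Its neighbours on chromosome 13, in the gene order of GRCm38.p6, were as dim, with Ecm2 at 6.19 ± 0.15, Omd at 6.21 ± 0.09 and Ogn at 6.63 ± 0.26. All 4 lay below the reference. In the related cluster on chromosome 10 the genes did not share a call. Dcn, decorin, read 8.58, 9.37, 9.37 and 9.66 and was above the reference, though below Olfr767. Lum read 7.39, 8.06, 8.09 and 8.53 and was not distinguished from it, or below it without replicate 4 (adjusted p = 0.0179 by limma), and Kera (6.62 ± 0.09) and Epyc (6.74 ± 0.07) were below. Both Dcn and Lum were lowest on replicate 1 and highest on replicate 4.

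Collagen genes and collagen hydroxylases were above the reference in 15 of 19 cases with a median of 9.29, the median of all genes being 9.30, and none was among the brightest 10%. Col1a1, the main fibrillar collagen chain of connective tissue, read 11.98, 11.56, 11.54 and 11.42. Col3a1 stood at 10.27 ± 0.13, Col5a2 at 10.41 ± 0.10 and Col2a1, the cartilage collagen that the notochord and neural tube also express, at 10.57 ± 0.21. The basement membrane chains Col4a3 (8.24 ± 0.18) and Col4a4 (8.36 ± 0.11) were at or near the reference, and Col10a1, of hypertrophic cartilage, was below it at 7.73 ± 0.20. Among proteases and inhibitors 15 of 18 were above. Timp3, an inhibitor bound to matrix, read 12.58, 12.30, 12.77 and 12.71. Adam19, a membrane protease known from crest and heart development, stood at 12.40 ± 0.09, Bmp1, which cleaves procollagen, at 12.19 ± 0.16, and the membrane collagenase Mmp14 at 11.23 ± 0.26.

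Integrins and their linkers were above in 12 of 16 cases (75%, against 63.5% of all genes). Itga5, the alpha chain of the fibronectin receptor, read 12.28, 11.85, 11.76 and 11.73, highest on replicate 1. Itgb5, a beta chain that binds vitronectin, stood at 11.87 ± 0.19, and its ligand gene Vtn at 7.88 ± 0.03, below the reference. Itgb8 was at 11.47 ± 0.24 and Itgb3 at 9.52 ± 0.20, whereas the leukocyte chains Itgb2 (7.50 ± 0.11) and Itgae (7.56 ± 0.03) were below. Cadherins and other adhesion genes were above in 18 of 27 cases and below in 7, and the share above (66.7%) was close to the 63.5% of all genes. Cdh6, a cadherin of the dorsal neural tube and emigrating crest, read 13.34, 13.24, 13.68 and 13.65, at percentile 98.9. Celsr1, an atypical cadherin of planar polarity, read 12.01, 11.94, 11.10 and 11.02. Its order was opposite to that of Cdh6 and Cdh19, with replicates 1 and 2 the higher. Cdh7, known as a cadherin of migrating crest in the chick, stood at 7.61 ± 0.19, below the reference, as did Cdh9, Cdh12 and Cdh18.

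Guidance genes were above the silent reference in 20 of 20 cases, with a median of 10.35. The semaphorin receptors Plxnb2 (12.58 ± 0.19), Plxna2 (12.07 ± 0.28) and Nrp2 (12.02 ± 0.14) and the Slit receptor Robo1 (12.24 ± 0.06) were among the brightest 10%. The netrin receptor Unc5a read 10.98, 11.69, 10.04 and 10.01, and Cxcr4, the chemokine receptor of many migrating progenitors, read 10.54, 11.15, 10.13 and 10.14. Both were highest on replicate 2 and lowest on replicates 3 and 4. At the low end Cxcl14 stood at 8.60 ± 0.11.

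Receptor tyrosine kinases were above in 11 of 13 cases. All 4 ErbB receptors were measured. Beside Erbb3 (12.25 ± 0.44), Erbb2 ran from 10.99 on replicate 4 to 11.33 on replicate 1 and Erbb4 from 10.94 on replicate 1 to 11.15 on replicate 4, and Egfr read 10.74, 9.98, 10.41 and 10.44. Of these Erbb3 had the widest spread over the arrays. Epha4, an ephrin receptor, stood at 11.62 ± 0.23 and Ntrk2, the receptor for BDNF, at 9.74 ± 0.13. Ros1 was below the reference at 7.40 ± 0.18.

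Genes of Wnt signalling were above in 23 of 28 cases, with a median of 9.43. The list was led by the receptors Fzd3 (12.39 ± 0.19) and Fzd7 (12.20 ± 0.32) and the planar polarity protein Vangl2 (12.23 ± 0.18), while the receptors Fzd6 and Fzd5 stood at 9.34 ± 0.08 and 8.53 ± 0.11. Of 10 ligands, Wnt1 and Wnt5a are given above, and the other 8 lay between Wnt6 at 8.24 and Wnt3 at 9.67. Axin2, a feedback target of beta-catenin, read 11.16, 11.23, 10.74 and 10.79. In the TGF-beta and BMP list 20 of 29 were above (69%, against 63.5% of all genes) and 6 were among the brightest 10%. The ligand Bmp4 read 13.16, 12.79, 12.98 and 12.99, and its receptors Bmpr2 and Bmpr1a stood at 12.86 ± 0.11 and 12.58 ± 0.16. Tgfb2 stood at 12.51 ± 0.13. Tgfb3 read 12.25, 12.05, 11.21 and 11.30 and Bmp6 read 11.41, 11.36, 10.46 and 10.55, both higher on replicates 1 and 2. The antagonist Nog was above the reference at 10.43 ± 0.35, and the left-side ligands Lefty1 (7.33 ± 0.23) and Lefty2 (6.55 ± 0.21) were below it.

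**Figure D4:**
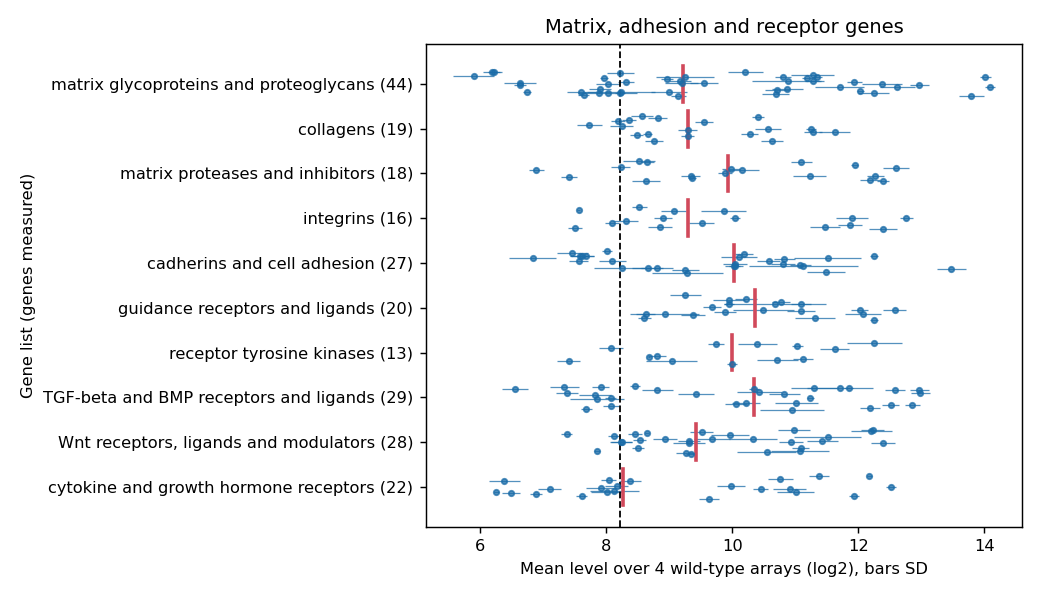
Mean level (log2, points) and SD (bars) over the 4 wild-type arrays for each measured gene of 10 lists of matrix, adhesion and receptor genes, with the list's median (red) and the silent reference (dashed line at 8.22); the height of a point within its row has no meaning. Guidance genes all lie right of the line, while matrix glycoproteins run from Aspn at 5.89 to Fn1 at 14.09.

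Hedgehog and Notch genes were above the reference in 16 of 17 cases. The Hedgehog effector Gli3 read 12.98, 12.88, 12.50 and 12.54. The receptor Ptch1 stood at 11.76 ± 0.22 and Gli1 at 9.15 ± 0.19, a level below Olfr767. Pathway activity was not tested. The Notch effector Hes1 stood at 10.74 ± 0.11. Genes of FGF signalling and its feedback were above in 15 of 18 cases and below in 0, and 3 were not distinguished. Dusp6, a phosphatase induced by ERK, read 12.65, 11.87, 12.25 and 12.20, and Fgf10 stood at 8.25 ± 0.10. Of cytokine and growth hormone receptors 10 of 22 were above (45.5%, against 63.5% of all genes) and 8 below. Npr3 (12.52 ± 0.08), Il6st (12.17 ± 0.04) and Ngfr led them, and Il7r (6.38 ± 0.24) and Il18r1 (6.25 ± 0.04), receptors of lymphoid cells, closed them. Nuclear receptors were above in 11 of 21 cases (52.4%, against 63.5% of all genes). The retinoic acid receptors Rarb, which is itself a retinoic acid target, Rara and Rarg stood at 11.94 ± 0.23, 10.90 ± 0.13 and 10.31 ± 0.11. Rxrg, known from crest-derived glia and melanocytes, read 9.20, 9.18, 10.02 and 10.24. Nr1h4, the bile acid receptor of liver and gut, was below the reference at 6.73 ± 0.10.

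The 15 brightest genes were mostly of general use. They were the RNA gene Rn7sk (14.65), the histone gene H4c4 (14.45), Rps6 (14.27) and Rplp0 (14.17) of the ribosome, the elongation factor Eef2 (14.26), the cyclin partner Cdk4 (14.19), the chaperone Hspa8 (14.19), Atp5b of ATP synthase (14.14), Tpt1 (14.12), Sumo2 (14.09), the tubulin Tuba1a (14.07), Nt5dc2 (14.04) and Csrp1 (14.03). The remaining members, Fn1 (14.09) and Fabp7 (14.07), came from the matrix and glial lists. All 33 measured cytosolic ribosomal protein genes were above the reference and 27 were among the brightest 10%. All 21 cytoskeleton and motility genes were above it, 15 of them among the brightest 10%, with Pfn1 at 13.91 ± 0.08 and Tubb2b at 13.54 ± 0.18. The 21 cell cycle genes were above it as well, with a median of 10.97. Cdk1, the mitotic kinase, read 12.33, 12.52, 12.58 and 12.71, and Rrm2, which makes deoxynucleotides for replication, read 12.89, 13.10, 13.09 and 13.04. Top2a, a topoisomerase of dividing cells, had a mean of 12.50 on its brightest probe set and 6.54 on another, so its level rests on the choice of probe set. Of 37 keratinocyte and hair keratin genes, listed as genes that these cells are not known to use, 4 were above the reference, led by Krt33b at 9.57 ± 0.16, and 27 were below.

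The spread between arrays was small for most genes. The SD over the 4 arrays had a median of 0.131 log2 units, 5349 genes (78%) were under 0.2 and 45 (0.66%) were over 0.5. By group of mean level the median SD was 0.12, 0.11, 0.12, 0.12, 0.14, 0.16, 0.15, 0.15, 0.13 and 0.11 from the dimmest to the brightest and was highest in the middle groups. Of the 2474 genes above the reference whose replicates 1 and 2 did not overlap with 3 and 4, 1390 were higher on 1 and 2. This count describes the arrays and carries no test.

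Of the 12 genes with the largest SD above the reference, 11 had that arrangement, against 56.8% of all 4355 genes above it. The 12 were picked by SD, which such a gap raises, so the count of 11 is partly set by the choice. Besides Slc4a1, Hba-x and Cdh19, those higher on replicates 3 and 4 were Krt5, Moxd1, F630048H11Rik, Rab3c, Kcnk5 and Cthrc1. Moxd1, an enzyme-like protein known as a marker of crest cells, read 10.95, 10.71, 11.98 and 12.06. Cthrc1, a secreted collagen-repeat protein, read 10.51, 10.18, 11.33 and 11.40, and Kcnk5, a potassium channel, read 10.12, 10.27, 11.25 and 11.36. The basal keratin Krt5 read 8.04, 8.44, 9.40 and 9.42, so that it stood near the reference on replicates 1 and 2, and its call was lost without replicate 3 or 4 (adjusted p = 0.135 and 0.102 by limma). The call of Rab3c, a vesicle GTPase of neurons, was lost without replicate 3 (adjusted p = 0.0541 by limma). The genes higher on replicates 1 and 2 were Unc5a and Egln3, an oxygen-dependent hydroxylase induced in hypoxia, which read 10.66, 10.65, 9.56 and 9.68. Nkx2-9, a homeobox gene of the ventral neural tube, was the exception. It read 10.77, 9.16, 9.76 and 9.75, with replicate 1 highest and replicate 2 lowest.

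**Figure D5:**
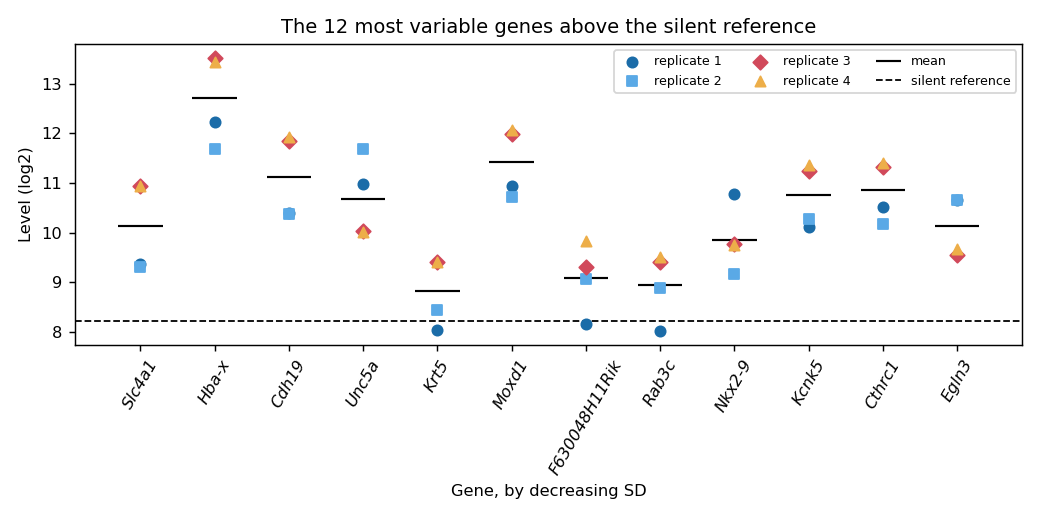
Level (log2) on each wild-type array (symbols) of the 12 genes with the largest SD among those above the silent reference, ordered by SD, with the mean (bar) and the reference (dashed line at 8.22). Replicates 3 and 4 lie close together for every gene except F630048H11Rik and stand above replicates 1 and 2 in 9 of them.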

How the data were processed

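The deposited log2 values were made by the authors from Affymetrix Mouse Gene 1.0 ST arrays with RMA and Partek, per the submitters' processing notes; their versions are not given in the sources used here. The RMA method removes background, equalises the arrays and gives 1 value for all probes of a probe set, which narrows the range at the dim end. No detection calls came with the values. The table used here held 16381 probe sets, of which 7416 had 1 gene symbol in the platform annotation, 509 several and 8456 none. The brightest probe set over the 4 wild-type arrays was taken for each gene (308 genes had several). Symbols came from RefSeq's gene table of GRCm38.p6 by gene identifier for 6830 genes and from the platform for the other 25, and 6709 genes (97.9%) lay on chromosome 1 or chromosomes 10 to 16, so other genes were not analysed here.

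Each array's 95th percentile of olfactory receptor genes was subtracted from its log2 levels, and the differences were fitted with limma 3.58.1 in R 4.3.3 (intercept, lmFit and eBayes, two-sided, Benjamini-Hochberg over 6855 genes, threshold 0.05). In a copy of the steps tested on simulated data with 6855 genes, 97 of 100 genes set 0.5 log2 units above the reference were called above it, 100 of 100 at 1 unit and 0 of 100 at 0. The simulated scatter was independent between arrays and held no gap between replicates 1 and 2 and replicates 3 and 4. These counts therefore need not hold for the real arrays. Promoter windows were read with Python 3.11.15 and pandas 2.3.3. Windows on chromosome 18 were left out. A CG ratio of observed to expected is the CG count times the window's length over the product of its C and G counts.

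The members and the 31 gene lists, which hold 562 measured genes of 1162 listed, were chosen with earlier results of these data known. Named genes were the 15 brightest, up to 6 brightest and 2 dimmest of each list, the 12 with the highest SD among genes above the reference and the cell type markers, and further genes were chosen to be named once their values had been seen. Alternatives covered the reference, the choice of probe set, the normalisation, the left-out replicate and the CG limit. Samples were grouped by their titles, and the mutant arrays entered only the alternatives that pool the spread or choose the brightest probe set over 8 arrays.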

Additional observations from a re-analysis of the deposited data

Results flagged for a closer look

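In 288 sets of 4 wild-type values (named genes and list means), 15 had 1 array far from the other 3, with a gap to the nearest above Dixon's 95% critical value. Chance alone gives about 1 in 20, or 14.4 such sets, close to the number found.

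Replicate 2 stood low in 8 of them. Its values were 13.30 for Cnn2 (others 13.58 to 13.61), 13.01 for Lpp (13.41 to 13.44), 9.01 for the endothelial receptor Acvrl1 (9.51 to 9.59), 13.88 for Sparc (14.05 to 14.07), 11.91 for Nid1 (12.51 to 12.57), 6.25 for Lefty2 (6.64 to 6.67), 7.88 for Foxc1 (8.41 to 8.47) and 11.20 for the mean of the smooth muscle list (11.43 to 11.44), which holds Cnn2 and Lpp. Replicate 2 stood high for Olig3, at 11.37 (others 11.01 to 11.05).

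Replicate 1 stood high for Krt19 at 11.44 (others 10.74 to 10.80) and for the immediate early gene Nr4a1 at 10.85 (10.22 to 10.28). It stood low for Top2a at 12.14 (12.60 to 12.63), for the transferrin receptor Tfrc at 11.29 (11.65 to 11.71) and for Csrp2 at 11.93 (12.01 to 12.02). Replicate 4 stood low for Dbx2 at 8.38 (8.46 to 8.47).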

How the results depend on the processing

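No paired analysis was possible because only the wild-type arrays entered the results and no groups were compared. The choice of reference moved the counts most. With the highest olfactory receptor gene as reference, 2776 genes were above and 3520 below, and the members above fell to 3 of the enteric list, 11 of neurons, 7 of neural tube, 2 of tail bud, 8 of somite and lateral mesoderm, 0 of skeletal and cardiac muscle, 1 of endothelium, 3 of blood, 8 of epithelium, 7 of collagens, 9 of proteases, 6 of integrins, 7 of receptor tyrosine kinases, 12 of Wnt genes, 12 of guidance genes, 7 of nuclear receptors, 8 of Hedgehog and Notch genes, 8 of FGF genes and 0 of hair keratins. With their median as reference, 424 genes were below, and the members above rose to 26 of somite and lateral mesoderm, 17 of skeletal and cardiac muscle, 13 of endothelium, 13 of blood, 19 of cytokine receptors, 21 of nuclear receptors and 32 of hair keratins. Hair keratins above numbered 2 with the reference of vomeronasal, keratin-associated, prolactin and defensin genes, and 2 to 5 when 1 replicate was left out. With alternatives chosen after seeing the data they numbered 2, both against their own 95th percentile and on replicates 1 and 2 alone. On replicates 3 and 4 alone, also chosen after seeing the data, the median SD was 0.0628. At a CG limit of 0.75, 68.9% of windows in the brightest group and 3.3% in the dimmest were CG-rich. The causes were not tested beyond what each alternative's construction sets. Leaving out 1 replicate gave 4261 to 4392 genes above, 1917 to 1994 below, a median level of 9.30 to 9.31 and a median SD of 0.109 to 0.138.

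Taking the mean of all probe sets of a gene moved 8 of 256 named genes by more than their SD: Top2a to 9.52, Lpp to 11.48, Zic5 to 11.05, Heg1 to 10.90, Cd47 to 10.35, Spred2 to 11.03, Etv1 to 9.76 and Myl6 to 13.15. Over the 308 genes with several probe sets the median gap between the brightest and the dimmest was 0.87 log2 units, and 141 differed by more than 1. Neither the shared spread nor the brightest probe set over 8 arrays moved any count by more than 1.5 times. The same held for probe sets with several symbols, a further quantile normalisation and centring. Promoter shares were judged by the confidence interval of the main share instead. By that rule, taking each gene's window with the highest CG ratio moved no share. Without detection calls or probe sequences, signal over background could not be assessed for a single gene.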

Other observations

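Gene families outside the lists were looked at after levels had been seen. Their counts are to be read beside the 63.5% of all genes that lay above the silent reference. All 7 measured Klf genes, zinc finger factors of growth and differentiation, were above the silent reference, led by Klf6 at 11.89 ± 0.20 (SD, n = 4) and Klf7 at 11.61 ± 0.12. Of 12 Fox genes 5 were above and 4 below, with Foxk2 at 11.90 ± 0.17 and Foxh1 at 7.54 ± 0.12. Among 18 core histone genes 15 were above, from H4c4 at 14.45 ± 0.13 to H2ac8, below it, at 6.18 ± 0.09; many histone genes are near-identical copies, so probes may be shared between them. Of 16 Rgs genes, inhibitors of G protein signalling, 8 were above and 8 below. Rgs16 read 11.87, 11.97, 11.87 and 11.82, and Rgs5, of pericytes, read 9.81, 9.61, 10.63 and 10.79. Of 43 serpins, protease inhibitors, only 4 were above. Serpinf1, which encodes the anti-angiogenic factor PEDF, was the brightest at 11.89, 11.60, 12.32 and 12.38, and 37 were below.

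The imprinted genes Grb10, an adaptor that restrains growth factor receptors, and Plagl1, a zinc finger factor, stood at percentiles 99.7 and 98.7. Grb10 read 13.87, 13.75, 14.02 and 14.04, and Plagl1 read 13.45, 13.43, 13.26 and 13.26. In the Dlk1 and Meg3 domain of chromosome 12, Dlk1 read 11.21, 11.57, 11.98 and 11.95 and the RNA gene Meg3 read 10.66, 10.56, 10.68 and 10.56, whereas Rtl1 (7.97 ± 0.11) and Rian (7.87 ± 0.15) were below the reference. Of 125 microRNA genes 34 were above and 76 below, with Mir7-1 at 10.78 ± 0.12, and of 21 small nucleolar RNA genes 15 were above. Whether these probe sets read the small RNAs or longer transcripts of the same loci was not analysed here. The keratin-associated gene Krtap17-1, of hair, read 10.32, 10.15, 10.32 and 10.04, a level above that of Olfr767 in a family with 4 of 20 members above the reference. Outside the named genes, 8456 probe sets without a symbol had a median of 8.26, and the mean of 4306 (50.9%) exceeded the reference. What these probe sets measure was not analysed here, so the share is not one of expressed genes.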
